A study of Mus musculus with 135 samples.

Results

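The genes described are the D cyclins (*Ccnd1*, *Ccnd2*, *Ccnd3*), their kinase partners (*Cdk4*, *Cdk6*), the CDK inhibitors *Cdkn1a*, *Cdkn1b*, *Cdkn1c* and *Cdkn2c*, and the retinoblastoma gene *Rb1*. They were chosen by name, as the machinery that governs the step from G1 into S phase, and are 10 of the 15181 genes in the table of RefSeq read counts. All 10 were present, and all were expressed in at least 10% of the cells analysed, the limit that 9374 genes passed. Their levels were compared between young and old haematopoietic stem cells (HSCs), and between cells with and without transcripts of later cycle phases.

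The HSCs were single cells sorted from bone marrow of C57BL/6 mice as Lin- Sca-1+ c-Kit+ (LSK) CD150+ CD48- and 7AAD- (viable) cells. The young cells came from 1 mouse of 2 to 3 months and the old cells from 1 mouse of 20 to 25 months, and both ages carried the *Vwf-eGFP* reporter, a transgene that marks cells with *Vwf* promoter activity. Of 61 young and 74 old cells in the table, 52 and 62 passed the study's limits on quality and are used here. By the study's account each age was 1 animal, and the cells of each age were treated as 1 animal on 1 capture run, so that age, animal and run cannot be told apart, no p-value was computed, and every SD is a spread between cells of that animal.

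D cyclins bind CDK4 or CDK6, and the complexes phosphorylate the retinoblastoma protein, which then releases E2F transcription factors that switch on genes for DNA replication. Inhibitors of the INK4 family, such as the product of *Cdkn2c* (p18), bind the kinases themselves, whereas the CIP/KIP proteins encoded by *Cdkn1a* (p21), *Cdkn1b* (p27) and *Cdkn1c* (p57) bind cyclin-CDK complexes. Most HSCs in adult bone marrow are out of cycle, and p57, p27 and p18 are known for limiting the entry of HSCs into it.

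*Cdk4* was the member with the highest level per length and the only one lower by 2-fold in the old cells, and *Cdk6*, which encodes the kinase that shares its partners, had the lowest level per length. The 250 bases before an annotated transcript start of each gene are shown to set these kinase genes side by side (GRCm38.p6, RefSeq, both on the plus strand, chr10:127063285-127063534 for *Cdk4* and chr5:3343643-3343892 for *Cdk6*). The *Cdk4* window ends just before the first base of the annotated gene, whereas the *Cdk6* window lies inside the annotated span of the gene, before a start downstream of its first base. Capitals mark the E-box CACGTG, which reads the same on both strands and is the sequence bound by MYC and related factors.
Cdk4: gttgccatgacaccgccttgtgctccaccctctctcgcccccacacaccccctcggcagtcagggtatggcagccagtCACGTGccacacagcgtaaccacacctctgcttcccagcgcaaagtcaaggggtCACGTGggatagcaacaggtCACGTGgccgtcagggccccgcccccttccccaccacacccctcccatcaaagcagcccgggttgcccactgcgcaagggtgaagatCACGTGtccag
Cdk6: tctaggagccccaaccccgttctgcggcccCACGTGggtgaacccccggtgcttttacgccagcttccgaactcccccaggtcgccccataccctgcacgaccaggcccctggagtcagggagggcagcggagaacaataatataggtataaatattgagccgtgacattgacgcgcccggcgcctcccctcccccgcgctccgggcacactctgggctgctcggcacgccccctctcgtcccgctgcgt
The *Cdk4* stretch held 4 E-boxes, starting 172, 118, 98 and 11 bases before the transcript start, and the *Cdk6* stretch held 1, starting 220 bases before the transcript start it precedes. Among 32851 promoters of the same length, 6.02% held an E-box and 7 promoters held 4 or more. Promoters were found for 6 of the 10 members, 9 in all (*Ccnd3*, *Cdk4*, *Cdk6*, *Cdkn1a*, *Cdkn1b* and *Cdkn2c*). None of the 9 held an E2F site, searched on both strands as TTTCGCGC, TTTGGCGC, TTTCCCGC or TTTGCCGC and present in 1.86% of all promoters. The CCAAT box (CCAAT, either strand, in 33.8% of all promoters) was found in those of *Cdkn1b* and *Ccnd3*. These matches describe the letters of the windows and carry no measurement of binding.

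Reads counted on genes ranged from 273236 to 5688706 per young cell (median 2798989.5) and from 276316 to 4086659 per old cell (median 2116023.5). Levels are log2(CPM + 1), with CPM the reads of a gene as counts per 1000000 reads of the cell, and a gene counts as expressed in a cell where its level is above 2, the study's own rule. Of 10 HSC markers, 6 were expressed in over 50% of the cells of each age, whereas *Cd48* was expressed in 1 young and 0 old cells (which allows up to 4.84% of old cells, taking 3 cells as the limit of a count of 0) and *Flt3*, a receptor of progenitors outside the gate, in 5 young and 2 old cells. *Cd79b*, the 1 of 4 B cell markers in the table, was expressed in 12 young (23.1%) and 16 old cells (25.8%). Platelet and megakaryocyte markers (4 of 4 in the table) had summed levels of 0 to 477 CPM in young cells (median 0.328) and 0 to 2623 CPM in old cells (median 10.4), and their part in the differences between the ages was not tested. *Lepr*, a marker of stroma whose transcripts overlap those of *Leprot*, was expressed in every cell of both ages. *Xist* was on in 50 young cells (of 52) and 8 old cells (of 62), and the Y-linked *Ddx3y* in 0 young but 38 old cells, with 6 old cells holding both. Sex-linked genes thus also differed between the ages, and for the members a difference of sex cannot be told apart from age. Whether the old cells with *Xist* were captures of several cells or came from another animal was not tested. No doublet caller was run. Without the 8 old cells that expressed *Xist* and the 2 young cells that did not, the same number of members, 4, differed by 2-fold between the ages. This choice splits the ages fully by *Xist*, so the unchanged count does not bear on sex. Reads carried no molecular identifiers, so each interval below (95%, exact Clopper-Pearson for shares of cells, exact Poisson for summed reads) covers counting error only.

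Between the ages, 3 members had a mean level at least 1 log2 unit (2-fold) higher in old cells (*Ccnd1*, *Cdkn1a* and *Cdkn2c*) and 1 had a lower level (*Cdk4*). Over all 9374 genes tested, 6.24% were higher and 6.98% lower by that much. The median difference of the members was 0.16, beside -0.07 over all genes tested, with 5 members higher and 5 lower in old cells. Leaving out each of the cells in turn left the count at 4. In cells with at least 1000000 reads (47 young and 51 old) 2 members remained past 2-fold, as *Cdkn1a* (0.85) and *Cdkn2c* (0.84) came below it. The share over all genes was not computed for those cells.

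**Figure D1:**
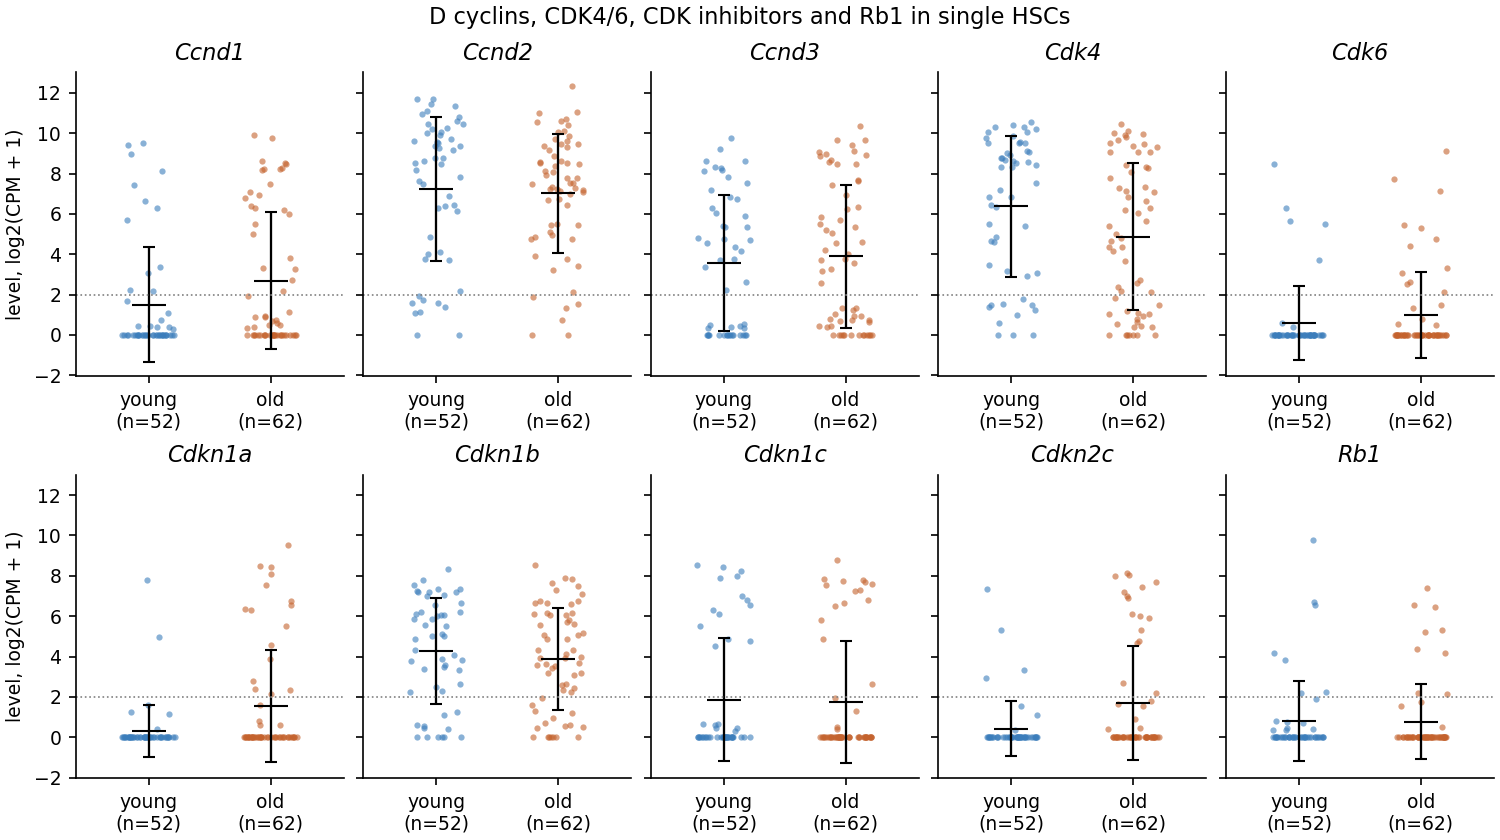
Level of each member, log2(CPM + 1), in every young (blue, n = 52) and old (orange, n = 62) HSC. Horizontal bars are means, whiskers 1 SD between cells and the dotted line the limit of 2. Cells at 0 made up most of both ages for *Cdk6*, *Cdkn1a*, *Cdkn1c*, *Cdkn2c* and *Rb1*, and the ages overlapped for all 10 genes.

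Among the D cyclins, *Ccnd2* (chr6:127125162-127152188) was expressed in most cells of both ages, *Ccnd3* (chr17:47505051-47599689) in somewhat more than 50%, and *Ccnd1* (chr7:144929931-144939831) in a minority. *Ccnd2* levels ran from 0 over a median of 8.57 to 11.71 in young cells and from 0 over 7.52 to 12.34 in old cells, with means of 7.23 ± 3.59 (SD, n = 52) and 7.02 ± 2.95 (SD, n = 62). Cells expressing it numbered 43 of 52 young (82.7%, 69.7 to 91.8) and 56 of 62 old cells (90.3%, 80.1 to 96.4), and the means differed by -0.21. *Ccnd2* was thus the D cyclin present in most HSCs at either age.

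*Ccnd3* was likewise close between the ages, with means of 3.56 ± 3.36 (SD, n = 52) and 3.91 ± 3.54 (SD, n = 62), medians of 3.73 and 3.63 and highest values of 9.78 and 10.34. Cells expressing it numbered 30 of 52 young (57.7%, 43.2 to 71.3) and 35 of 62 old cells (56.5%, 43.3 to 69). *Ccnd1* was the D cyclin whose mean level differed by at least 2-fold. Its median was 0 in young cells and 0.65 in old cells, the highest values were 9.53 and 9.89, and the means were 1.51 ± 2.85 (SD, n = 52) and 2.69 ± 3.4 (SD, n = 62), a difference of 1.18. *Ccnd1* was expressed in 12 of 52 young (23.1%, 12.5 to 36.8) and 24 of 62 old cells (38.7%, 26.6 to 51.9), intervals that overlap. Where it was expressed, its mean level was alike, 6.09 ± 2.77 (SD, n = 12) in young and 6.55 ± 2.22 (SD, n = 24) in old cells. In the 47 young and 51 old cells of at least 1000000 reads the *Ccnd1* difference was larger, at 1.86. On the ratio of mean CPM over all kept cells its log2 difference was 0.70, below 2-fold. By that measure it was close to *Ccnd3* at 0.66, with *Ccnd2* at -0.57. *Ccnd1* thus stood out among the D cyclins by mean level, and not by this ratio. Its share of expressing cells differed by 15.6 percentage points, beside 7.63 for *Ccnd2* and -1.24 for *Ccnd3*.

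No cell expressed *Ccnd1* alone among the D cyclins. All of the D cyclins were expressed together in 7 young and 14 old cells, *Ccnd2* with *Ccnd3* in 17 and 19, and *Ccnd2* alone in 15 and 14. *Ccnd3* alone was seen in 5 young and 1 old cells, and no D cyclin in 3 young and 4 old cells. Of 24 old cells with *Ccnd1*, 23 also expressed *Ccnd2*, as did 11 of 12 young cells. *Ccnd2* was expressed in 86.8% of the old cells and 80% of the young cells without *Ccnd1*, so its frequency was high on either side.

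**Figure D2:**
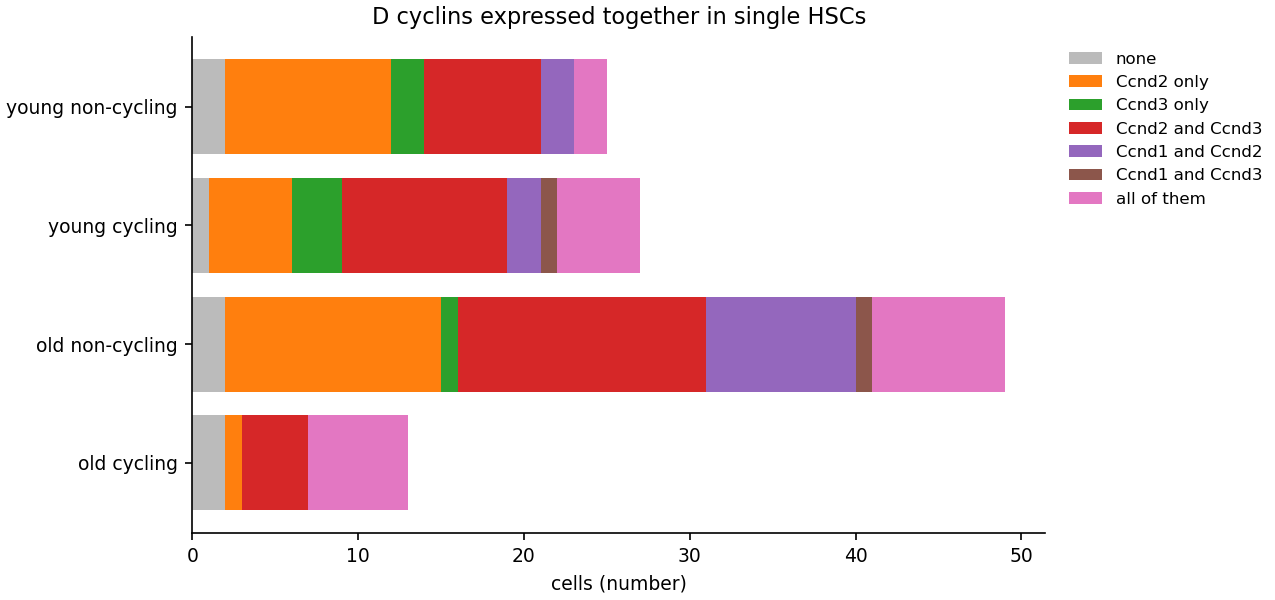
Number of cells (x axis) with each combination of expressed D cyclins in young and old HSCs, split by whether any of *Ccna2*, *Ccnb1*, *Cdk1* and *Cdc25c* was expressed. All D cyclins together were seen in 8 of 49 non-cycling and 6 of 13 cycling old cells, and in 2 of 25 and 5 of 27 young cells.

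*Cdk4* (chr10:127063535-127067288), which encodes the kinase partner of D cyclins with the higher level in these cells, ran from 0 over a median of 7.95 to 10.58 in young cells and from 0 over 4.90 to 10.46 in old cells. The means were 6.39 ± 3.50 (SD, n = 52) and 4.88 ± 3.66 (SD, n = 62), a difference of -1.51 and the lowest of the 10 members. Young cells were concentrated at the high end, whereas old cells were spread from 0 upwards, and the ranges overlapped. *Cdk4* was expressed in 41 of 52 young (78.8%, 65.3 to 88.9) and 42 of 62 old cells (67.7%, 54.7 to 79.1). The intervals of these shares overlap. In expressing cells alone the mean level was 7.85 ± 2.28 (SD, n = 41) in young and 6.92 ± 2.55 (SD, n = 42) in old cells. Both the share and the level in expressing cells were thus lower in the old cells, in these animals. On the ratio of mean CPM (383 in young and 231 in old cells) the log2 difference was -0.73, below 2-fold. Among cells without the 4 later-phase genes (25 young and 49 old) it was -0.91.

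*Cdk6* (chr5:3341004-3531008) was at 0 in most cells. Expressing cells numbered 5 of 52 young (9.62%, 3.20 to 21) and 12 of 62 old cells (19.4%, 10.4 to 31.4), with means of 0.59 ± 1.83 (SD, n = 52) and 1.0 ± 2.12 (SD, n = 62) and highest values of 8.47 and 9.14. Of the 12 old cells with *Cdk6*, 11 also expressed *Cdk4*, and 3 of the 5 young cells did. Neither kinase gene was expressed in 9 young (17.3%) and 19 old cells (30.6%), and both were in 3 young and 11 old cells.

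Over all kept cells, the inhibitors divided into genes that were close between the ages (*Cdkn1b* and *Cdkn1c*) and genes that were seldom expressed in young cells (*Cdkn1a* and *Cdkn2c*). *Cdkn1b* (chr6:134920401-134925525) was the inhibitor found in most cells, 40 of 52 young (76.9%, 63.2 to 87.5) and 45 of 62 old (72.6%, 59.8 to 83.1). Its levels ran from 0 over a median of 4.93 to 8.36 in young cells and from 0 over 3.92 to 8.56 in old cells, with means of 4.26 ± 2.63 (SD, n = 52) and 3.86 ± 2.53 (SD, n = 62). *Cdkn1c* (chr7:143458339-143461059) was expressed in 14 of 52 young (26.9%, 15.6 to 41) and 15 of 62 old cells (24.2%, 14.2 to 36.7), with means of 1.86 ± 3.04 (SD, n = 52) and 1.73 ± 3.02 (SD, n = 62). The median of *Cdkn1c* was 0 at both ages, yet expressing cells averaged 6.68 and 6.86, and 6 young and 4 old cells held a read of it without reaching a level of 2.

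*Cdkn1a* (chr17:29090979-29100722) had a median of 0 at both ages, with highest values of 7.77 in young and 9.51 in old cells. It was expressed in 2 of 52 young (3.85%, 0.469 to 13.2) and 16 of 62 old cells (25.8%, 15.5 to 38.5), and its mean was 0.33 ± 1.29 (SD, n = 52) in young and 1.54 ± 2.78 (SD, n = 62) in old cells, a difference of 1.21. *Cdkn2c* (chr4:109660876-109666756) was similar, with 4 of 52 young (7.69%, 2.14 to 18.5) and 16 of 62 old cells (25.8%, 15.5 to 38.5), highest values of 7.34 and 8.12, and means of 0.42 ± 1.38 (SD, n = 52) and 1.69 ± 2.81 (SD, n = 62), a difference of 1.27. For *Cdkn1a* the intervals of the shares did not overlap. For *Cdkn2c* they overlapped between 15.5% and 18.5%. The shares of *Cdk6*, *Cdkn1a* and *Cdkn2c* in young cells lay at or below that of *Flt3* (9.62%). Young cells said to express them are cells above the limit of 2, and are not taken as evidence of expression by young HSCs. In those cells the genes averaged 5.93, 6.36 and 4.73, and whether the share of *Flt3* is a background level was not tested. The shares of *Cdkn1a* and *Cdkn2c* in old cells, and of *Ccnd1* in young cells, equalled those of *Cd79b* at the same age, and whether free RNA contributed to them was not tested.

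Single cells carried much of these sums. The young cells held 680 reads of *Cdkn1a* (95% interval 630 to 733), of which 82.4% came from 1 cell, and 573 of *Cdkn2c* (527 to 622), of which 71.6% came from 1 cell. The old cells held 3224 reads of *Cdkn1a* (3114 to 3337) with 41.9% in 1 cell, and 3546 of *Cdkn2c* (3430 to 3665) with 20.1% in 1 cell. Among old cells 6 expressed *Cdkn1a* and *Cdkn2c* together, and 10 expressed each without the other. Of the 16 old cells with *Cdkn2c*, 15 also expressed *Cdk4* (93.8%), against 58.7% of the old cells without it. This combination was singled out after the values of 45 combinations had been seen, and all 4 young cells with *Cdkn2c* expressed *Cdk4*, against 77.1% of the others. It was not particular to *Cdkn2c*, as 91.7% of old cells with *Cdk6* expressed *Cdk4*, against 62% of those without. In old cells the levels of *Cdk4* and *Cdkn2c* rose with the number of genes expressed (Pearson r 0.39 and 0.29), whose part was not tested.

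Exactly 1 of the 4 inhibitor genes was found in 33 young cells, 63.5% of them, and in 22 old cells, 35.5%. None was expressed in 6 young and 10 old cells. In young cells 12 expressed 2 inhibitors, 1 expressed 3 and 0 expressed 4, whereas in old cells 21 expressed 2, 8 expressed 3 and 1 expressed 4. Cells with 2 or more of these inhibitors thus made up a larger share of the old cells, in these animals. This follows in large part from the shares of *Cdkn1a* and *Cdkn2c* given above, and is not a separate result.

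*Rb1* (chr14:73192858-73325951) was expressed in few cells and at close mean levels. Transcripts were above 2 in 7 of 52 young (13.5%, 5.59 to 25.8) and 9 of 62 old cells (14.5%, 6.86 to 25.8), with means of 0.79 ± 1.97 (SD, n = 52) and 0.77 ± 1.86 (SD, n = 62). The sum of reads was set by 1 young cell, with 76.8% of the 2943 young reads. With that cell the log2 ratio of mean CPM, old to young, was -1.49, and without it 0.70.

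**Figure D3:**
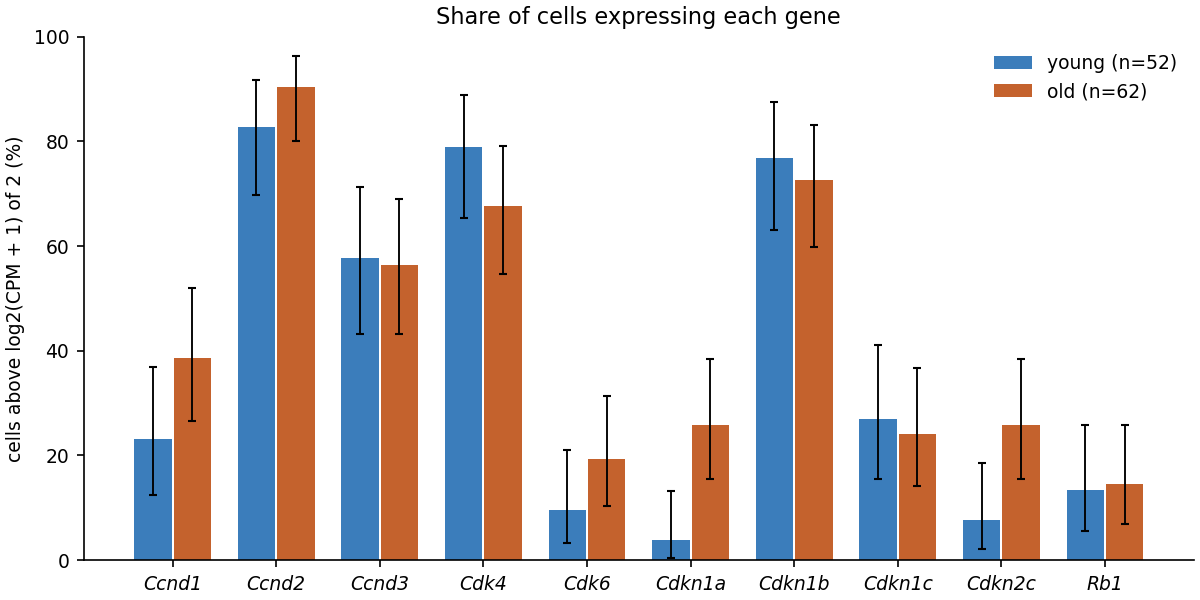
Share of young (blue, n = 52) and old (orange, n = 62) HSCs above a level of 2 for each member, in percent. Whiskers are 95% exact Clopper-Pearson intervals for counting error only, and those of the ages stood apart for *Cdkn1a* alone among the 10 genes.

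Per kilobase of transcript, *Cdk4* was first at both ages, with mean CPM of 187 per kilobase in young and 113 in old cells, followed by *Ccnd2* (112 and 75.8) and *Ccnd3* (44.5 and 70.3). In old cells *Ccnd2* and *Ccnd3* lay within 1.5-fold of each other, and their order is not read as a difference. *Cdkn1a*, *Ccnd1*, *Cdkn1c* and *Cdkn1b* followed in old cells between 26.7 and 19.8, again within 1.5-fold, and *Cdk6* was last at both ages (0.900 and 1.51). Lengths were those of annotated transcripts, so the order holds only if these are the forms expressed. The spans of *Ccnd2*, *Ccnd3*, *Cdk4* and *Rb1* overlap other genes of the table (*9330179D12Rik*, *Bysl*, *Tspan31* and *Lpar6*), and as counting by strand is not stated, reads in the overlaps could belong to either gene.

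Cells with and without later-phase transcripts were compared next, within each age. These comparisons use the same cells as that between the ages, so the values are set side by side and are not independent. A cell is called cycling here where any of *Ccna2*, *Ccnb1*, *Cdk1* and *Cdc25c*, genes of S phase to mitosis, was above 2, and non-cycling otherwise, with no measure of DNA content behind the name. By this rule 27 of 52 young (51.9%, 37.6 to 66) and 13 of 62 old cells (21%, 11.7 to 33.2) were cycling. *Cdk1* was expressed in 21 young and 7 old cells, *Cdc25c* in 12 and 3, *Ccna2* in 11 and 2, and *Ccnb1* in 11 and 4. Several of the 4 genes were on together in 15 young but 3 old cells, and 1 alone in 12 young and 10 old cells, so most old cells called cycling rested on a single transcript. The median number of genes expressed was 4614 in cycling and 3862 in non-cycling young cells, and 3760 and 3939 in old cells. Of the 10 members a median of 4 was expressed per cycling young cell (1 to 8) and 3 per non-cycling young cell (2 to 6), beside 6 (1 to 7) and 4 (2 to 7) in old cells.

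In young cells *Ccnd3* and *Cdk4* were at least 2-fold higher in cycling cells and *Cdkn1b* was lower. Of all genes tested, 20.2% were higher and 3.87% lower by as much, with a median difference of 0.25, so that a shift upward was common in the cycling young cells, which also had more genes expressed. The median over the members was 0.50. The part of the number of genes expressed in these differences was not tested. With library sizes scaled by TMMwsp factors, which correct for differences in composition, the median over all genes was -0.05, and 1118 genes were higher and 951 lower by 2-fold, against 1891 and 363 without them. On that scale the differences of *Ccnd3* and *Cdk4* were 0.78 and 0.75, below 2-fold, those of *Cdkn1b* and *Ccnd2* were -1.62 and -1.36, and *Ccnd1* changed sign to -0.08.

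*Cdk4* in non-cycling young cells ran from 0 over a median of 6.86 to 10.20 and in cycling young cells from 0 over 8.69 to 10.58, with means of 5.68 and 7.05 and a difference of 1.37. It was expressed in 19 of 25 non-cycling (76%) and 22 of 27 cycling cells (81.5%), so that the levels differed more than the shares. The difference lay in cells with several later-phase genes. Their mean was 8.37 ± 2.54 (SD, n = 15), with 14 of 15 cells expressing *Cdk4*, whereas cells with 1 such gene averaged 5.39 ± 3.94 (SD, n = 12), close to the non-cycling cells at 5.68 ± 3.41 (SD, n = 25). In old cells the 3 with several genes were at 9.37, 9.45 and 9.52, the 10 with 1 gene averaged 4.02 ± 3.36 (SD) and the 49 with none 4.78 ± 3.66 (SD). Over all 13 cycling old cells the difference was 0.50, and it was -0.04 without the old cells that expressed *Xist*.

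*Ccnd3* was expressed in 19 of 27 cycling (70.4%, 49.8 to 86.2) and 11 of 25 non-cycling young cells (44%, 24.4 to 65.1), with medians of 4.58 and 0.38 and a difference of means of 1.35. In old cells the shares were 10 of 13 (76.9%, 46.2 to 95.0) and 25 of 49 (51%, 36.3 to 65.6) and the difference was 0.79. By the ratio of mean CPM the old cells gave -0.79, since non-cycling cells that expressed *Ccnd3* held it at a higher level (6.89 against 5.86). *Ccnd2* was lower in the cycling cells of both ages, by differences of -0.75 in young and -0.84 in old cells. Its difference was negative under every alternative of cells, scaling and class run, between -1.98 and -0.28 in young and between -1.32 and -0.74 in old cells (-1.20 to -0.31 over old cells left out in turn), so that some of these passed 2-fold. *Ccnd1* differed by 0.19 and -0.01.

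*Cdkn1b* was expressed in 18 of 27 cycling (66.7%, 46 to 83.5) and 22 of 25 non-cycling young cells (88%, 68.8 to 97.5), with medians of 4.08 and 5.10 and a difference of means of -1.03. This value stood at the limit of 2-fold, and leaving out any one of 23 of the 52 young cells brought it below, to -0.88 at the least. In old cells the difference was -0.18, with 11 of 13 cycling and 34 of 49 non-cycling cells expressing it.

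In old cells *Cdkn1a* was the only member past 2-fold, in a background of 11.8% of genes higher and 7.96% lower and a median of 0.04 over all genes tested. Its level ran from 0 over a median of 2.16 to 9.51 in the 13 cycling cells and from 0 over 0 to 8.48 in the 49 non-cycling cells, with a difference of means of 2.33. It was expressed in 7 of 13 cycling (53.8%, 25.1 to 80.8) and 9 of 49 non-cycling old cells (18.4%, 8.76 to 32), and the intervals overlap. Leaving out any single old cell kept the difference between 1.82 and 2.61. In young cells *Cdkn1a* was expressed in 2 of 27 cycling and 0 of 25 non-cycling cells, where a count of 0, taking 3 cells as its limit, allows a share of up to 12%. Whether the cycling difference itself depended on age was not tested for any member.

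*Cdkn2c* was expressed in 4 of 27 cycling and 0 of 25 non-cycling young cells, and all 4 expressed several later-phase genes. In old cells 3 of 13 cycling and 13 of 49 non-cycling cells (26.5%, 14.9 to 41.1) expressed it. Among non-cycling cells *Cdkn2c* differed by 1.61 between old and young, and *Ccnd1* by 1.28. These were the 2 members past 2-fold among non-cycling cells, where 11.8% of genes tested were higher and 6.28% lower in old cells, with *Cdkn1a* just below the limit at 0.98. For the D cyclins the log2 ratio of mean CPM among non-cycling cells was 0.19 (*Ccnd1*), 1.12 (*Ccnd3*) and -0.58 (*Ccnd2*). *Cdk6* differed between cycling and non-cycling cells by 0.68 in young and 0.48 in old cells, *Cdkn1c* by 0.49 and -0.91, and *Rb1* by 0.39 and -0.12, all below 2-fold.

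**Figure D4:**
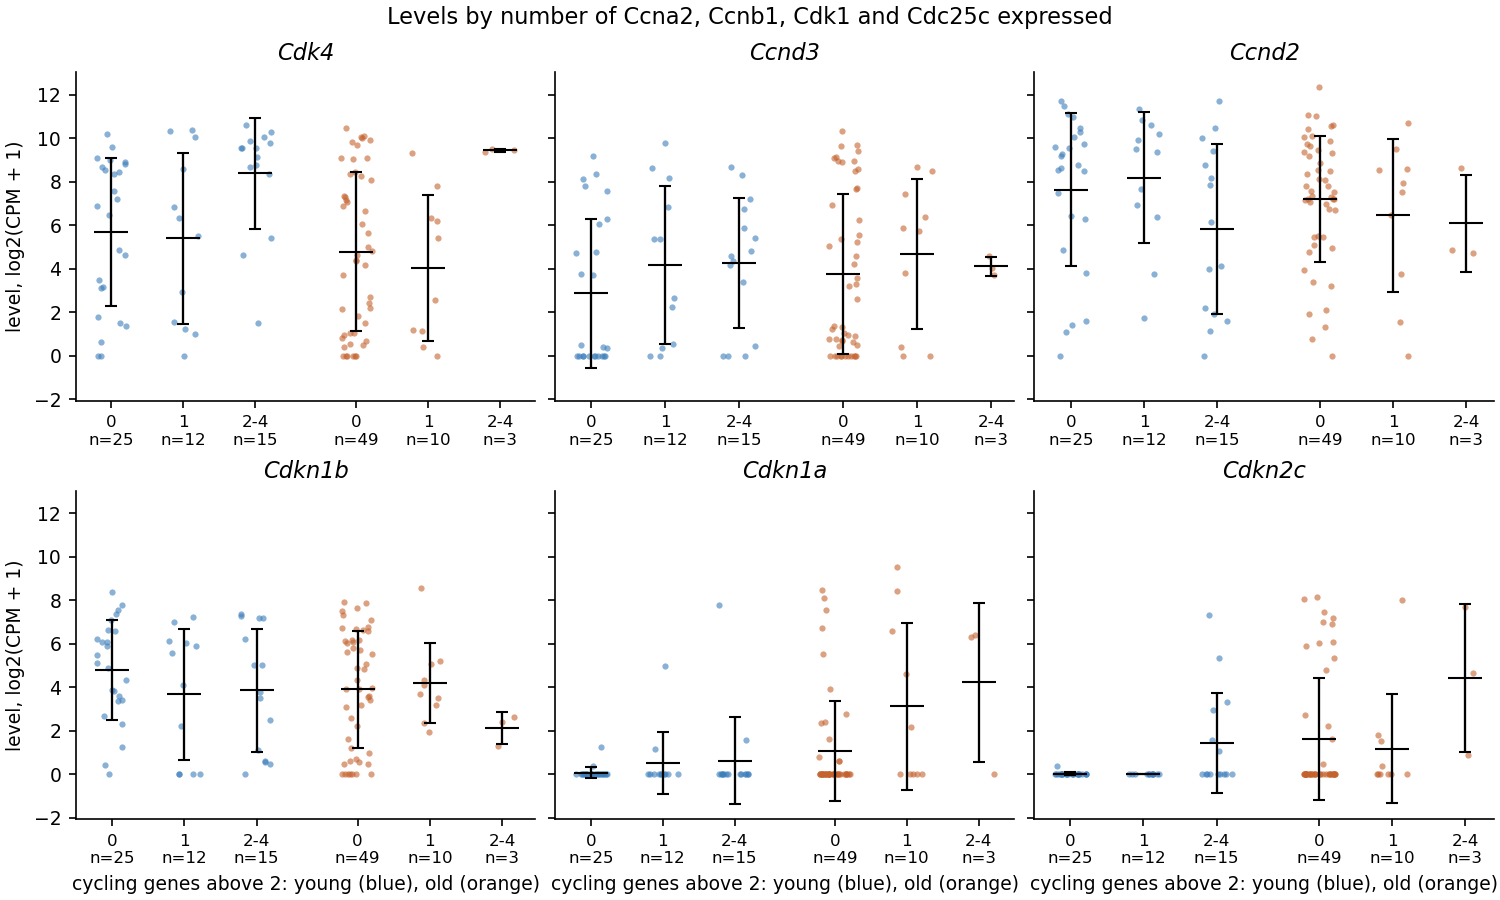
Level, log2(CPM + 1), of 6 members in young (blue) and old (orange) HSCs by the number of *Ccna2*, *Ccnb1*, *Cdk1* and *Cdc25c* above 2 (0, 1, or 2 to 4). Points are cells, bars means and whiskers 1 SD between cells. *Cdk4* was above 9 in the 3 old cells with 2 to 4 such genes, and *Cdkn2c* was above 2 in young cells only where 2 to 4 were expressed.

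**Figure D5:**
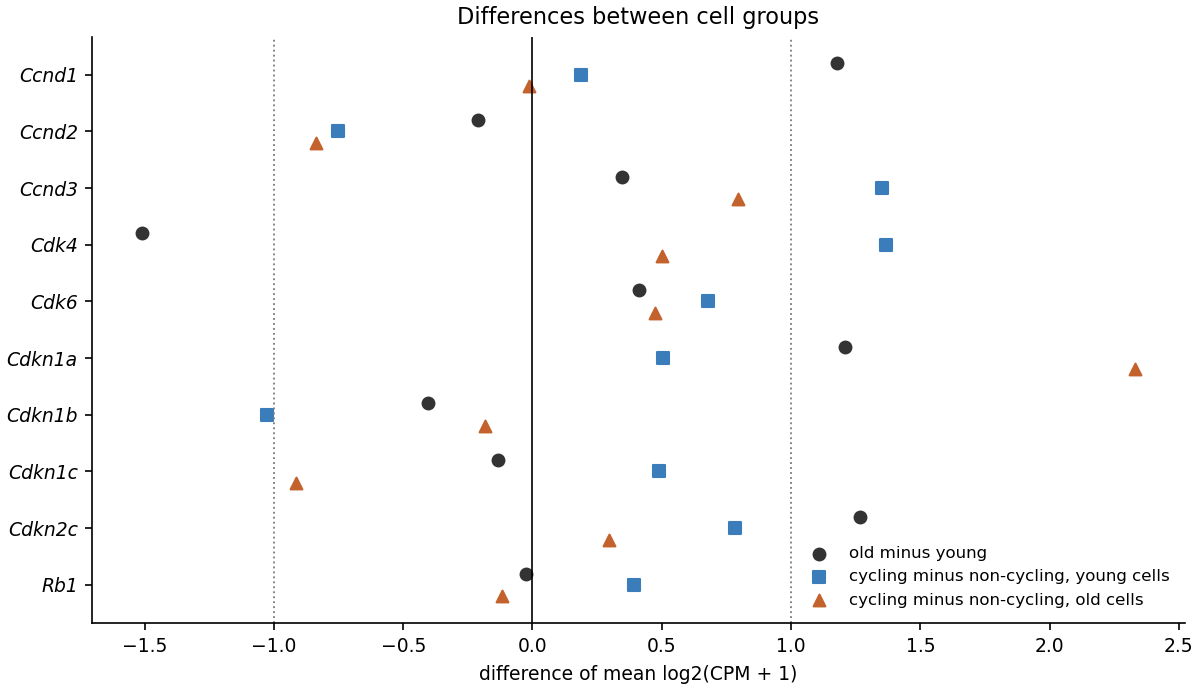
Difference of mean log2(CPM + 1) for each member between old and young cells (circles) and between cycling and non-cycling young (squares) and old cells (triangles). Dotted lines mark 2-fold. *Cdk4* was lower in old cells (-1.51) and higher in cycling young cells (1.37), and *Cdkn1a* had the largest value, 2.33, in cycling old cells.

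Other genes of the step from G1 to S were taken from a list of 25, 23 of which were in the table and 18 past the limit of 10% of cells. In cycling young cells 9 of the 23 (8 of the 18 tested) were at least 2-fold higher and 0 were lower, beside 20.2% and 3.87% of all genes tested, with a median of 0.74. With TMMwsp factors 6 of the 23 were higher and 1 lower, beside 1118 higher and 951 lower of the 9374 genes tested. The largest differences were in *Tfdp1* (2.96), which encodes the partner of E2F factors, *Cks1b* (2.48), a CDK-binding subunit, and *Cdkn2d* (1.67), a further INK4 inhibitor. *Tfdp1* was expressed in 19 of 27 cycling and 8 of 25 non-cycling young cells, and *Cks1b* in 19 and 7. In cycling old cells 3 of the 23 were higher, *Cks1b* (1.70), *Tfdp1* (1.44) and *E2f7* (1.12), an E2F that represses transcription, and 1 was lower, *Fbxw7* (-1.10), which encodes the ubiquitin ligase subunit that recognises cyclin E. These counts were near the shares over all genes tested, 11.8% and 7.96%, and the median was 0.41.

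Between the ages, 1 of the 23 was higher in old cells, *Mnat1* (1.07), a component of the CDK-activating kinase, and 2 were lower, *Cks1b* (-1.68) and *Rbl1* (-1.68), which encodes the retinoblastoma relative p107. These counts were near the 6.24% and 6.98% over all genes tested. The median of the list was -0.20, and 17 of its genes were lower and 6 higher in old cells, beside 5155 lower and 4219 higher of the 9374 tested. Among non-cycling cells *Cks1b* differed by -0.75 and *Rbl1* by -0.91, both below 2-fold.

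No gene followed a member closely from cell to cell. Over the 52 young and 62 old cells, after the mean of each age was subtracted, the highest Pearson r among 5876 genes was 0.39 for *Cdk4* (*Pitrm1*, then *Ndufc1* at 0.39), 0.37 for *Cdkn1c* (*Snora81*, then *Sin3a* at 0.36), 0.36 for *Ccnd1* (*Rgp1*, then *Mrpl28* at 0.34) and 0.35 for *Ccnd2* (*Vwf*, then *Huwe1* at 0.34). For *Ccnd3* it was 0.35 (*Kpna3*, then *Psme3* at 0.35) and for *Cdkn1b* 0.34 (*Ddx46*, then *Esr2* at 0.33). These correlations are weak, share the depth of each library and are given as a description of sparse counts. Between members the highest was 0.32, for *Cdk4* and *Cdkn2c*.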

How the data were processed

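Single HSCs were captured on C1 chips, and Nextera XT libraries of their cDNA were read as 51 bp single ends. For the deposited read counts per gene and cell, the authors aligned to mm10 with TopHat2 2.0.10 and used rpkmforgenes on the RefSeq annotation, without normalization. No column of the table was left unused. Cells were grouped by the age in the labels, and the 52 young and 62 old cells kept were those the study lists as passing its limits. CPM was taken over each cell's total, levels as log2(CPM + 1) with a pseudocount of 1 CPM, and differences as differences of mean levels, which understate changes of low genes. A difference of 1 was called past 2-fold among the 9374 genes above 2 in at least 10% of kept cells. The counts would call for edgeR's quasi-likelihood test, but with 1 mouse per age no test was made. The genes named were the 10 members, the 4 cycling genes, at most 3 higher and 3 lower genes past 2-fold of the list of 25 per comparison, and the 2 most like genes of members expressed in at least 25% of cells. *Cdkn2a* and *Cdkn2b* of that list were not analysed here. The members, the lists and the rules were chosen with earlier results of these data known. Alternatives were other sets of cells, thinning to 250000 reads, a pseudocount of 0.1 CPM, TMMwsp factors, ratios of mean CPM, other limits for an expressing cell and a class of at least 2 cycling genes. Transcript lengths were from GENCODE on GRCm38, and positions and promoters from RefSeq on GRCm38.p6. Of the steps, the sign of differences for changed genes and the read totals after thinning were tested on simulated data. R 4.3.3 with edgeR 4.0.16 (for TMMwsp factors) and Python 3.11.15 with scipy 1.17.1, numpy 2.4.6, matplotlib 3.10.9 and pandas 2.3.3 were used.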

Additional observations from a re-analysis of the deposited data

Results flagged for a closer look

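*Cdkn1c* was flagged by a rule that asked for opposite directions at the 2 ages and at least 1 log2 unit between them. Its difference between cycling and non-cycling cells was 0.49 in young and -0.91 in old cells. The old difference minus the young one was -1.41. *Ccnd1* (0.19 in young and -0.01 in old cells) and *Rb1* (0.39 and -0.12) also changed direction, but with less between the ages. *Cdkn1c* was expressed in 9 of 27 cycling and 5 of 25 non-cycling young cells, and in 2 of 13 cycling and 13 of 49 non-cycling old cells. The difference was not tested. With at least 2 of the 4 genes required for a cycling cell, the value in old cells was 0.90, over 3 cells, and after thinning to 250000 reads that in young cells was -0.54.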

How the results depend on the processing

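No paired analysis was possible because each age is 1 mouse, and no replicate could be left out for the same reason. Differences were called unmoved when the ratio they stand for moved by less than 1.5 times, and shares when they stayed in their 95% interval. Of 90 values of the difference between the ages 81 were unmoved, as were 162 of 200 cycling differences and 108 of 120 shares, and no difference past 2-fold changed sign. Members past 2-fold between the ages numbered 4, and 2 with at least 1000000 reads per cell or in non-cycling cells alone. In cycling young cells they numbered 3, but 1 after thinning and 5 with a pseudocount of 0.1 CPM. In cycling old cells they numbered 1, but 2 in all cells of the table, in cells with at least 3000 genes or with TMMwsp factors, 3 after thinning, 4 with a pseudocount of 0.1 CPM, and 6 with at least 1000000 reads or with at least 2 cycling genes required. That last class held 28.8% of young and 4.84% of old cells. Further settings were chosen after seeing the data. Thinning with the class of the full counts gave 3 in young and 2 in old cells, leaving out cells by *Xist* gave 2 and 2, and leaving out each cell in turn (leave-one-out) gave 4 in every case between the ages, 2 to 4 among young cells and 1 to 2 among old cells. The cause was not tested. Counts of cycling old cells rest on 13 cells. With TMMwsp factors 948 of the 9374 genes tested were higher and 864 lower by 2-fold in cycling old cells. Apart from TMMwsp factors and non-cycling cells, the share of all genes past 2-fold was not computed for the alternative settings. Their counts are therefore not read as results about the members.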
